A study of Mus musculus with 2 samples.

Results

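The urea cycle and the steps that bring ammonia into it were followed through 8 genes of the mRNA table, Cps1, Otc, Ass1, Asl, Nags, Slc25a15, Slc25a13 and Gls2, taken by name from the 20317 genes whose RefSeq identifiers matched a mouse symbol. All 8 were present, and all 8 had a value in both libraries, as did 10689 genes in all. The study sequenced RNA of primary hepatocytes to find transcripts that differ in fibrotic liver, with 1 library from oil-injected mice and 1 from mice injected with CCl4, a solvent that liver cells convert to a toxic radical. Both groups were wild-type C57BL/6J males, 5 weeks old when obtained. The CCl4 group received a 20% solution in mineral oil, at 2.5 ml CCl4 per kilogram, in 2 injections a week. The labels give 8 weeks of injection, whereas the methods give 4 weeks. The cells were freed by pronase and collagenase and collected on a density gradient. The number of mice behind a library was not given in the sources used here. With 1 library in each group, no difference has a replicate check, and no test between the conditions was possible. Depth read from the RPKM steps of short genes was about 57989623 reads with oil and about 64652436 reads with CCl4. The RPKM of unannotated lncRNAs rested on other library totals, 62438202 with oil and 70960847 with CCl4.

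The urea cycle turns toxic ammonia into urea, which the kidney excretes, and the liver is the organ that runs all of its steps. Carbamoyl phosphate and citrulline are made inside mitochondria, and the remaining steps take place in the cytosol, so carriers in the inner mitochondrial membrane link both compartments. The cycle is strongest in hepatocytes near the portal vein, where glutamine is also broken down. Hepatocytes around the central vein bind the ammonia that escapes into new glutamine.

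All 8 mRNAs were lower in the CCl4 library, by 1.51-fold for Nags to 2.61-fold for Otc. However, 3 of them (Ass1, Nags and Slc25a13) came out higher once the libraries were scaled to 13 hepatocyte genes, most of them for secreted proteins. How many came out higher depends on the hepatocyte genes used, as given below. Values are RPKM, reads scaled to transcript length and library size, so that levels of different genes can be set side by side. Log2 fold changes are the CCl4 over the oil value with 0.1 RPKM added to each. Their median over the 8 genes was -1.07, beside 0.30 for all 10689 genes. The summed level of the 8 mRNAs was 1858 RPKM with oil and 904.8 RPKM with CCl4, or 48.7% of the oil level. They made up 0.444% of all mRNA RPKM with oil and 0.251% with CCl4. In such bulk RNA, fewer hepatocytes and less of an mRNA per hepatocyte cannot be told apart.

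**Figure D1:**
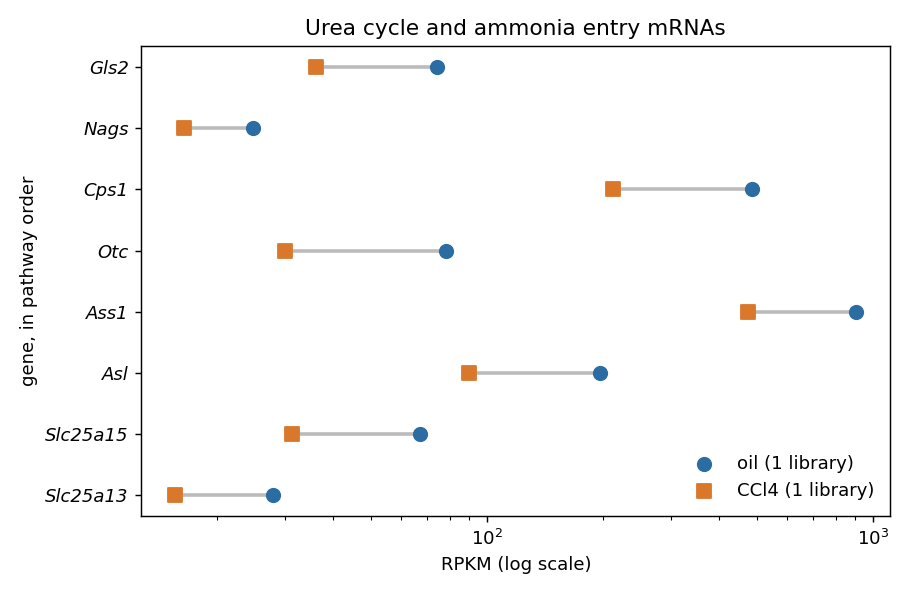
RPKM on a log axis for the 8 genes in pathway order, in the oil library (circles) and the CCl4 library (squares), with 1 library in each group and no error bar. Every square lies left of its circle as deposited. Ass1 is highest, at 904.3 and 473.2 RPKM, and the lowest values are those of Nags with oil (24.8 RPKM) and Slc25a13 with CCl4 (15.6 RPKM). Scaling to 13 genes of the hepatocyte list reverses the order of the libraries for Ass1, Nags and Slc25a13.

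Promoter sequences are given for 3 genes because they mark the ends of the series, Otc with the largest difference, Nags with the smallest and Ass1 with the highest level. Each run is the 250 bases before a RefSeq start (GRCm38.p6), read 5′ to 3′ on the strand of the gene. Capitals mark matches, on either strand, to any of 6 short motifs, the TATA box (TATAAA), the CCAAT box (CCAAT), the GC box (GGGCGG), the cAMP response half-site (TGACG), an HNF4-like motif (CAAAGTNCA) and a C/EBP-like motif (TTGCNNAA). The windows lie at chrX:10252055-10252304 for Otc, chr11:102145263-102145512 for Nags and chr2:31470020-31470269 for Ass1, each on the plus strand. The Otc start is not the outermost one of its gene, so the last bases of that window (75 of 250) lie inside the gene.
Otc: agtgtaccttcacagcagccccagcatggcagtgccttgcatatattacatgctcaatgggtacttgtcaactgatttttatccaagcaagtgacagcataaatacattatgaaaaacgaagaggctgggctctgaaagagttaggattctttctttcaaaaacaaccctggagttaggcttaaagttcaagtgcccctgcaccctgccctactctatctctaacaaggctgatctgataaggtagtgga
Nags: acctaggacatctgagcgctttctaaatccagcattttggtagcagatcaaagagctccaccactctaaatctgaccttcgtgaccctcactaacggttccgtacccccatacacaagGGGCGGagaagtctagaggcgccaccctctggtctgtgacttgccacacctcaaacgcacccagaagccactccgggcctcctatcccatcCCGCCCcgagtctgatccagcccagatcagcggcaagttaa
Ass1: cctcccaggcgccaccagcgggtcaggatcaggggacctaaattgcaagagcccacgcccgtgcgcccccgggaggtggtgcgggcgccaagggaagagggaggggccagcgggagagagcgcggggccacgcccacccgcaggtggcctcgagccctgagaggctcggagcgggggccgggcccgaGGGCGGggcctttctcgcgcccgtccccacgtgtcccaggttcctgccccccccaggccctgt

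The Otc window held none of the 6 motifs and had 43.6% G and C, against 55.6% for Nags, 75.6% for Ass1 and a median of 52.4% over all 32851 promoters of the table. The Nags window had 2 matches to GGGCGG, the GC box bound by Sp1-type factors, at -132 and -41 from the start, and the Ass1 window had 1 match, at -63. Windows were found for 5 of the 8 genes, 6 windows in all since Slc25a15 has 2 starts, and 4 of the 6 held GGGCGG, as did 32.7% of all promoters. The only matches that overlapped each other in these windows were a pair of GC boxes of Slc25a15. The Slc25a13 window held CCAAT and TGACG, a cAMP response half-site, which occur in 33.8% and 17.8% of all promoters. No member window held TATAAA (12.4% of all promoters), the HNF4-like CAAAGTNCA (1.19%) or the C/EBP-like TTGCNNAA (9.56%). A match is a description of the letters and not evidence of binding.

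Ammonia entry begins with Gls2, the liver form of glutaminase, which releases ammonia from glutamine in periportal mitochondria. Gls2 was at 74.1 RPKM with oil and 36.2 RPKM with CCl4. Its log2 fold change was -1.03, so the CCl4 library held 48.9% of the oil level. The gene (chromosome 10, 128194635 to 128210004) overlaps the gene Spryd4 over 97 bases, which was at 14.0 and 8.03 RPKM. Since the strand of counting is not given in the sources used here, reads of the 2 genes in that overlap cannot be told apart.

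Nags makes N-acetylglutamate, the activator without which the first enzyme of the cycle does not work. It was the lowest of the 8 mRNAs in the oil library, at 24.8 RPKM, and stood at 16.4 RPKM with CCl4. The log2 fold change of -0.60 was the smallest of the group. An interval from counting error alone, for 1 kilobase of transcript, ran from -0.71 to -0.48 for Nags and did not reach that of any other member. The gene (chromosome 11, 102145513 to 102149528) overlaps the lncRNA gene Gm11586 over 795 bases, and reads of both in that overlap cannot be told apart either.

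Cps1, carbamoyl phosphate synthetase, joins ammonia and bicarbonate in the mitochondrion and commits the nitrogen to urea. It went from 485.6 RPKM with oil to 212.5 RPKM with CCl4, with a log2 fold change of -1.19. By level it ranked 90 among all genes with oil and 202 with CCl4. Cps1 lies on chromosome 1 at 67122426 to 67231267.

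Otc, ornithine transcarbamylase, then forms citrulline from carbamoyl phosphate and ornithine. It was at 78.1 RPKM with oil and 29.9 RPKM with CCl4, which is 38.3% of the oil level. Its log2 fold change of -1.38 was the largest of the 8, with a counting interval of -1.46 to -1.31 that did not reach the -1.22 to -1.16 of Cps1. In rank it moved from 635 to 1480. Within each library, Cps1 stood 6.21 times above Otc with oil and 7.10 times above it with CCl4.

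Ass1, argininosuccinate synthase, starts the cytosolic part by joining citrulline to aspartate, which carries in the second nitrogen. Ass1 was the most abundant of the 8 in both libraries, at 904.3 RPKM with oil and 473.2 RPKM with CCl4 (log2 fold change -0.93). Asl, the lyase that splits argininosuccinate into arginine and fumarate, was at 196.0 and 89.8 RPKM (log2 fold change -1.12). Ass1 kept 52.3% of its oil level, more than Asl at 45.8%. The ratio of Ass1 to Asl was 4.61 with oil and 5.27 with CCl4.

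Of the carriers, Slc25a15, which exchanges ornithine for citrulline across the inner membrane, was at 67.2 RPKM with oil and 31.2 RPKM with CCl4 (log2 fold change -1.10). Slc25a13, citrin, exports aspartate for the Ass1 step. It was at 27.9 and 15.6 RPKM (log2 fold change -0.84). Its other transcript gave nearly the same values, 27.9 and 15.6 RPKM, so the values do not tell the 2 forms apart.

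The order of the 8 levels was nearly kept between the libraries. With oil it ran Ass1, Cps1, Asl, Otc, Gls2, Slc25a15, Slc25a13 and Nags. With CCl4 Otc dropped behind Gls2 and Slc25a15, and Nags came before Slc25a13. Counting intervals of neighbours overlapped for Otc and Gls2 with oil, and for Slc25a15 and Otc and for Nags and Slc25a13 with CCl4, so these neighbours were not resolved even within a library. The highest level was 36.4 times the lowest with oil and 30.3 times with CCl4.

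At a difference of at least 2-fold, 5 of the 8 genes were called lower in the CCl4 library, Otc, Cps1, Asl, Slc25a15 and Gls2, and 0 were called higher. Over all 10689 genes, 5.48% were called lower and 14.3% higher by the same rule, and 32.4% were lower by any amount. The 8 genes are abundant, so the same shares were also taken over the 2091 genes with a mean of at least 20.6 RPKM, the mean of Nags, a limit set after the values were seen. Of those, 17.4% were called lower and 53.3% were lower by any amount. At 1.5-fold, 8 of 8 members were lower, against 12% of all genes, and 0 higher, against 31.5%. The spread within the group was small, 0.79 on the log2 scale between Otc and Nags.

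Scaling bears on all of these values. The median mRNA stood 0.30 log2 units above its oil level with CCl4, and after removal of that shift the members ran from -1.68 for Otc to -0.90 for Nags, with 7 of 8 called lower against 9.71% of all genes, and 0 higher against 7.99%. When library totals left out the 10 most abundant mRNAs, only Otc and Cps1 stayed past 2-fold, at -1.22 and -1.03, against 4.02% of all genes called lower and 19.3% higher. Another scaling, to the hepatocyte list, set the median of 13 of its 14 compared genes, all but Hnf4a, equal in both libraries. That median was lower with CCl4 by 1.01 on the log2 scale. The members then had a median of -0.06, 5 were lower and 3 higher, and 0 were called in either direction, against 0.711% of all genes called lower and 67.5% called higher, since this scaling puts the median of all genes at 1.30. Otc at -0.37 and Nags at 0.41 were then the ends of the group. All 14 hepatocyte genes compared had a median of -1.16 as deposited, and only Otc and Cps1 lay below it. The counts of members lower and higher after this scaling thus depend on the hepatocyte genes used.

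**Figure D2:**
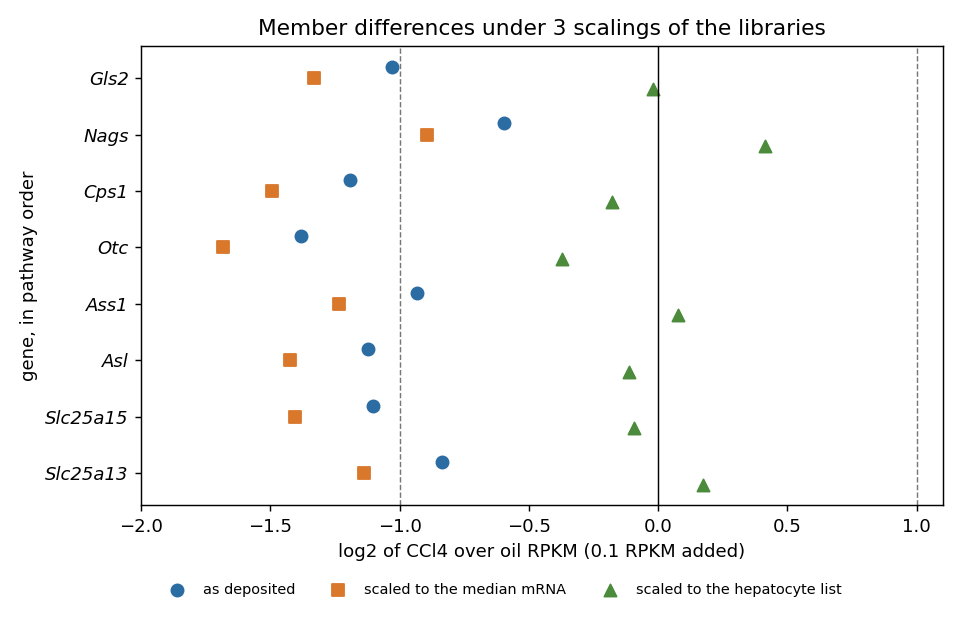
Log2 of CCl4 over oil RPKM (0.1 RPKM added) for each gene. Circles are values as deposited, squares are scaled to the median mRNA and triangles to 13 genes of the hepatocyte list. Dashed lines mark 2-fold, and the triangles gather around 0, from -0.37 for Otc to 0.41 for Nags, with Ass1, Nags and Slc25a13 on the higher side.

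The labelled cell type was checked against its markers. Of the hepatocyte list, 14 genes were in the table (albumin, transthyretin, apolipoproteins, fibrinogen chains and others) and all 14 were lower with CCl4, 8 of them past 2-fold. Alb was at 8656 RPKM with oil and 6476 RPKM with CCl4. The 13 genes used for scaling ran from -2.15 to -0.42, and all 8 urea cycle genes lay inside that range. The summed level of the 14 genes was 28824 RPKM with oil and 14359 RPKM with CCl4, or 49.8% of the oil level, beside 48.7% for the members. Genes of other liver cells were mostly higher. Of 12 stellate cell and myofibroblast genes, 11 were compared and all 11 were higher past 2-fold, while Pdgfrb was listed at 0 with oil, and their sum went from 88.3 to 984.2 RPKM. Of 10 Kupffer cell and macrophage genes, 7 were higher past 2-fold, and their sum went from 1539 to 4152 RPKM. Past 2-fold as deposited, 5.48% of all genes were lower and 14.3% higher, and 17.4% of the abundant genes were lower. The sum of 10 sinusoidal endothelial genes went from 618.4 to 1060 RPKM. Of 8 cholangiocyte genes, 4 were listed at 0 in both libraries, among them Sox9 and Cftr, and the sum was 50.9 and 170.2 RPKM, most of it from Spp1, which macrophages also express, at 37.4 and 145.1 RPKM. The part of these cell types in the lower urea cycle levels was not tested.

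The ratio of 2 genes within a library does not depend on scaling, and 5 of 7 pairs could be formed. Slc25a12, the aspartate carrier of muscle and brain, was at 4.41 and 6.71 RPKM, and the ratio of Slc25a13 to Slc25a12 went from 6.34 to 2.33. The log2 difference was -1.45 with a counting error of 0.13 (SE for 1 kilobase of each transcript). The hepatocyte form stayed the more abundant in both libraries. Such a ratio can still differ with the mix of cells, and the part of other cell types in it was not tested. Slc25a2 and Car5b were listed at 0 in both libraries, so their pairs gave no ratio.

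**Figure D3:**
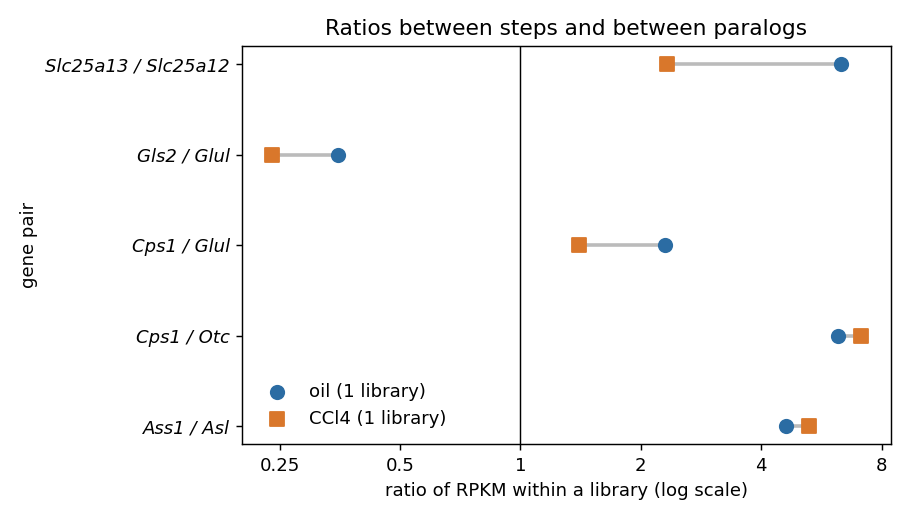
Ratios of RPKM between 2 genes of the same library, on a log axis, in the oil library (circles) and the CCl4 library (squares), with 1 library in each group. The ratios of Slc25a13 to Slc25a12, Gls2 to Glul and Cps1 to Glul are lower with CCl4, while Cps1 to Otc and Ass1 to Asl lie close together in both libraries.

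Ammonia that is not made into urea is bound by glutamine synthetase, Glul, the marker of pericentral hepatocytes. Glul was at 211.5 RPKM with oil and 151.4 RPKM with CCl4, a log2 fold change of -0.48. The 10 pericentral genes compared had a median of -1.28, below Cps1 at -1.19, so Glul does not stand for that zone. The ratio of Cps1 to Glul was 2.30 with oil and 1.404 with CCl4, and that of Gls2 to Glul was 0.350 and 0.239. The log2 differences were -0.71 and -0.55. Their counting errors of 0.025 and 0.042 do not include the spread between mice or preparations. Of the 13 genes of glutamine and glutamate turnover, 10 were compared, 2 were lower and 1 higher past 2-fold, and the median was -0.68, or 0.33 when scaled to the hepatocyte list. The lower ones were Slc1a2, a glutamate transporter of pericentral hepatocytes, from 23.2 to 1.03 RPKM (log2 fold change -4.36), and Slc38a3, a glutamine transporter, from 165.1 to 71.1 RPKM (-1.21). The higher one was Slc1a5, a glutamine transporter of proliferating cells, from 3.85 to 9.77 RPKM (1.32). Glud1, glutamate dehydrogenase, was at 190.8 and 122.8 RPKM (-0.64). Scaled to the hepatocyte list, 1 of the 10 was lower and 2 higher past 2-fold, beside 0.711% and 67.5% of all genes. As deposited, 5.48% of all genes were lower and 14.3% higher by that rule, and 17.4% of the abundant genes were lower.

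Aspartate and bicarbonate are the other inputs of the cycle. Of 12 genes compared on that list, 2 were lower past 2-fold and 0 higher, with a median of -0.71, or 0.30 when scaled to the hepatocyte list. Those were Fh1, fumarase, from 67.8 to 31.6 RPKM (-1.10), and Mdh1, the cytosolic malate dehydrogenase, from 133.0 to 61.1 RPKM (-1.12), both of which return the fumarate of the Asl step toward aspartate. Mdh2, the mitochondrial form, was at 41.7 and 40.5 RPKM (-0.04). Got1, the cytosolic aspartate aminotransferase, was at 66.7 and 33.7 RPKM (-0.98). Car5a, the mitochondrial carbonic anhydrase that supplies bicarbonate to Cps1, was at 16.6 and 8.91 RPKM (-0.89). Scaled to the hepatocyte list, 0 of the 12 were lower and 2 higher past 2-fold, beside 0.711% and 67.5% of all genes. As deposited, 5.48% of all genes were lower and 14.3% higher by that rule, and 17.4% of the abundant genes were lower.

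Of 12 genes of arginine and ornithine use, 1 was lower past 2-fold and 0 higher, with a median of -0.68, or 0.33 when scaled to the hepatocyte list. With the genes listed at 0 set to 1 RPKM the median was -0.08, with 3 of these genes at 0 in both libraries and Slc7a1 at 0 with oil only. Scaled to the hepatocyte list, 1 of the 12 was lower and 4 higher past 2-fold, beside 0.711% and 67.5% of all genes. As deposited, 5.48% and 14.3% of all genes were. The gene lower past 2-fold was Oat, ornithine aminotransferase, which draws ornithine out of the cycle in pericentral cells, from 106.0 to 25.1 RPKM (-2.08). Gatm, which uses arginine for creatine synthesis, was at 14.2 RPKM with oil and 27.8 RPKM with CCl4 (0.96). Slc7a1, a cationic amino acid transporter, was listed at 0 with oil and at 1.29 RPKM with CCl4, and Slc7a2, the liver form, was at 31.8 and 19.6 RPKM (-0.69).

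Enzymes of amino acid metabolism, only some of which release ammonia, had a median of -0.96, or 0.04 when scaled to the hepatocyte list. By median they were the closest to the members among the 5 nitrogen lists. Of 15 compared, 6 were lower past 2-fold and 0 higher, beside 5.48% and 14.3% of all genes. Scaled to the hepatocyte list, 0 were lower and 1 higher, beside 0.711% and 67.5% of all genes. The largest difference as deposited was that of Cbs, cystathionine beta-synthase, from 127.1 to 40.2 RPKM (-1.66). Amdhd1, Ftcd and Hal, which act in histidine breakdown, went from 52.6 to 20.0, from 84.3 to 32.7 and from 76.6 to 32.4 RPKM. Sds, serine dehydratase, was at 141.5 and 82.6 RPKM (-0.78).

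Of 12 genes that regulate the cycle or respond to the same hormones, 4 were lower past 2-fold and 0 higher. Hnf4a, a nuclear receptor of hepatocyte identity, went from 148.9 to 50.1 RPKM (-1.57), and Gcgr, the receptor for glucagon, from 72.0 to 30.2 RPKM (-1.25). Klf15, a fasting-responsive factor of amino acid breakdown, went from 50.7 to 22.03 RPKM (-1.20), and Tat, tyrosine aminotransferase, from 645.4 to 176.2 RPKM (-1.87). Cebpa, a factor that binds several urea cycle genes, was at 92.5 and 98.1 RPKM (0.08), and Nr3c1, the glucocorticoid receptor, at 12.8 and 14.3 RPKM (0.16). The median of these 12 was -0.49. Scaling to the hepatocyte list moved it to 0.52 and left 0 genes lower and 3 higher past 2-fold, beside 67.5% of all genes, Cebpa at 1.096, Nr3c1 at 1.17 and Foxo1 at 1.23. Over the 5 lists together, 61 of 72 genes were compared, 15 were lower and 1 higher past 2-fold, and the median was -0.73. Of all genes 5.48% were lower and 14.3% higher by that rule, and 17.4% of the abundant genes were lower.

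The members are periportal genes, so other zonation genes were set beside them. Of 12 periportal genes, 4 were lower past 2-fold and 3 higher, with a median of -0.80, or 0.21 when scaled to the hepatocyte list. Pck1, the gluconeogenic enzyme, went from 763.5 to 178.7 RPKM (-2.09) and Cyp2f2 from 222.1 to 101.1 RPKM (-1.14). The 3 higher genes were Ctsc, a lysosomal protease, from 51.0 to 115.7 RPKM (1.18), Aldh1b1, a mitochondrial aldehyde dehydrogenase, from 24.2 to 54.9 RPKM (1.18), and Apoa4, an apolipoprotein, from 96.0 to 200.9 RPKM (1.06). Of 10 pericentral genes compared, 6 were lower past 2-fold and 0 higher, with a median of -1.28. Scaled to the hepatocyte list, the pericentral median was -0.27, with 3 lower and 0 higher past 2-fold. The periportal genes then had 1 lower and 4 higher. Of all genes, 5.48% were lower and 14.3% higher as deposited, and 0.711% and 67.5% after that scaling. Axin2, a further pericentral gene, was listed at 0 with oil and at 2.06 RPKM with CCl4. Cyp2e1, the cytochrome P450 that activates CCl4, went from 644.7 to 127.8 RPKM (-2.33). The median of the members, -1.07, lay between those of both zones.

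**Figure D4:**
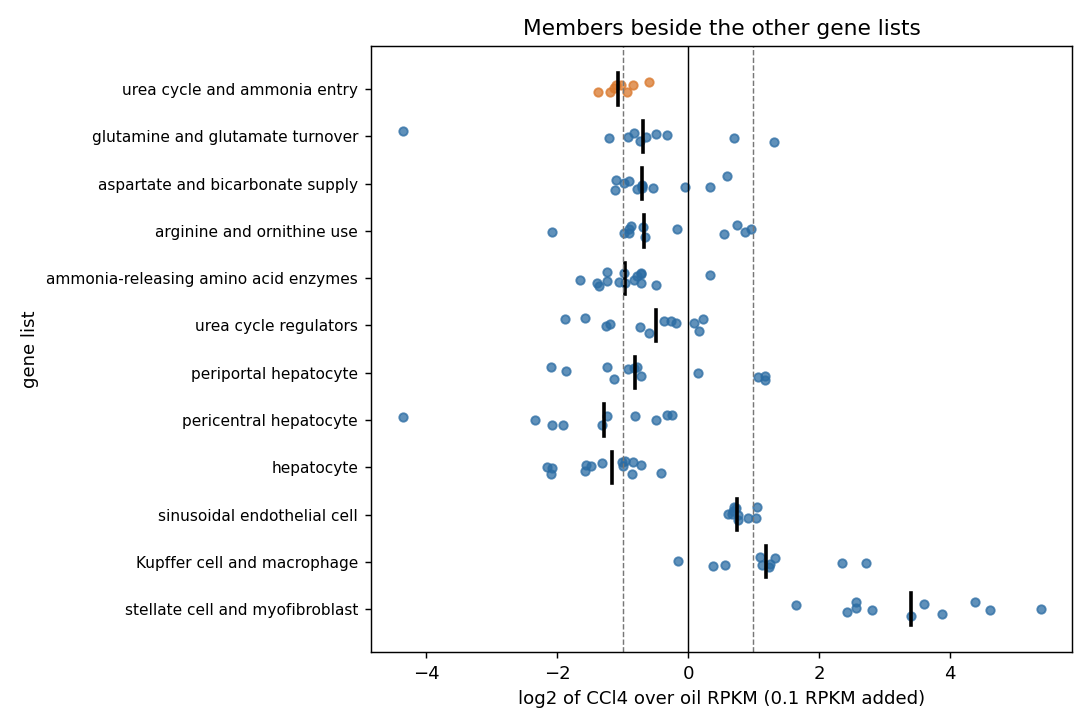
Log2 of CCl4 over oil RPKM (0.1 RPKM added) as deposited, with 1 point for each gene with a value in both libraries, a black bar at the median of each list and dashed lines at 2-fold. The members (orange, median -1.07) lie within the hepatocyte list. They lie apart from the endothelial, Kupffer cell and stellate cell lists, whose medians are 0.74, 1.19 and 3.40. Scaling to 13 of the 14 compared hepatocyte genes moves the median of the members to -0.06 and puts 3 of them above 0.

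Noncoding transcripts near the members were taken from the other tables. Within 100000 bases of the 8 genes, 3 of the 1443 unannotated lncRNAs were found, all upstream of Cps1. TCONS_00002462 (chr1:67103227-67116504, minus strand) starts 5922 bases upstream of Cps1 and runs away from it. It had 58 reads with oil (95% exact Poisson interval 44.0 to 74.98) and 23 reads with CCl4 (14.6 to 34.5). The log2 ratio of its RPKM was -1.52, with an exact Clopper-Pearson interval of -2.28 to -0.80 that covers counting error only. The shorter TCONS_00002463 lies within the same stretch on the same strand and had 39 and 22 reads. TCONS_00005161 on the plus strand had 28 and 22 reads, a log2 ratio of -0.53 with an interval of -1.41 to 0.33, so no difference was detectable at this depth. Its span lies within those of both minus-strand transcripts. Since the strand of counting is not given, their reads may not be separate. No noncoding RefSeq entry carried the symbol of a member.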

How the data were processed

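The study sequenced 1 hepatocyte library of each group. The submitters' processing notes list mm10, TopHat2 and CASAVA 1.4, without roles. The authors deposited RPKM values for mRNAs and lncRNAs, with values under 1 listed as 0, and read counts for new lncRNAs only. Their deposited log2 changes, p-values and q-values come from their own comparison and were not used.

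RefSeq identifiers were paired with symbols through the GRCm38.p6 gene table (27049 of 27457 matched). For genes with several transcripts, the one with the highest mean RPKM was used, and genes with a value in both libraries were compared. A difference was called at 2-fold on log2 of RPKM + 0.1. The aligner settings, counting program and annotation are not given in the sources used here. Depth was read from the steps of RPKM in RefSeq genes under 400 bases: a total of about 57989623 reads with oil gave whole reads (within 0.02) in 169 of 173 genes, and about 64652436 reads with CCl4 in 183 of 188. Thus 1 RPKM is about 58.0 and 64.7 reads per kilobase, and members had 1008 to 52440 reads per kilobase. Beyond the gene lengths of those short genes, lengths of mRNAs were not used here, so 95% intervals of mRNAs were computed for 1 kilobase of transcript (exact Clopper-Pearson or Poisson) and cover counting error only, since copies made by PCR are not independent molecules. The fold and depth steps were tested on simulated data. Genes named are 8 members and genes of fixed lists, and members and lists were chosen with earlier results of these data known. Tf, Pycr1 and Cd68 were not analysed here. A further member and a further list gene are not reported here and entered no count, sum or median of the members or lists. Further lists held lymphocyte, erythroid and cell cycle genes; their median log2 fold changes were 0.04, -0.81 and 1.91.

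Alternatives changed the added RPKM, the scaling, the transcript choice, the treatment of listed zeros and the fold threshold. Python 3.11.15, numpy 2.4.6, pandas 2.3.3, scipy 1.17.1 and matplotlib 3.10.9 were used.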

Additional observations from a re-analysis of the deposited data

How the results depend on the processing

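Of the 8 members, 5 called lower became 7 with scaling to the median mRNA, 2 with totals that leave out the 10 most abundant mRNAs, 0 with scaling to the hepatocyte list and 8 at a 1.5-fold threshold. Their median log2 fold change of -1.07 became -1.37, -0.90 and -0.056 under the first 3 of these. Scaling to the hepatocyte list used 13 of its 14 compared genes, and the median of all 14 was -1.16, which only Otc and Cps1 lay below. For the wider lists, 15 lower and 1 higher genes became 36 and 1 with the median mRNA, 2 and 12 with the hepatocyte list, 40 and 6 at 1.5-fold, and 12 and 3 with totals that leave out the 10 most abundant mRNAs. Of all genes, 9.71% were lower and 7.99% higher with the median mRNA, 12% and 31.5% at 1.5-fold, and 4.02% and 19.3% with those totals. A scaling shifts every fold change by construction, while a threshold alters only the calls. Outside scaling to the hepatocyte list, every member stayed lower under each alternative run, from -1.68 to -0.43. Adding nothing, summing transcripts and setting listed zeros to 1 RPKM kept 5 members past 2-fold. Setting listed zeros to 1 RPKM moved list medians, from -0.68 to -0.082 for arginine and ornithine, from -0.68 to -0.48 for glutamine and glutamate and from -0.49 to -0.37 for the regulators. The medians of all 5 nitrogen lists were above 0 with scaling to the hepatocyte list, from 0.04 to 0.52, and below the median of all genes at 1.30 (67.5% of all genes called higher, 0.711% lower). No paired analysis was possible because each group has 1 library, and no library could be left out. The data cannot separate CCl4 from a difference between 2 preparations, and mRNA values under 1 RPKM were not seen.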
